A study of Mus musculus with 12 samples.

Results

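A set of 10 genes of the mammalian circadian clock was followed in mouse embryonic fibroblasts (MEF), cells cultured from embryos. They are Arntl (also called Bmal1), Clock, Per1, Per2, Cry1, Cry2, Nr1d1, Nr1d2, Bhlhe40 and Dbp, chosen by name as the core loop, its second loop and a PAR bZIP output factor, and their rows were found by Ensembl gene ID. The choice was made with earlier results of these data known, so counts and medians over the set are descriptions only. All 10 were present among the 55536 gene IDs of each library. Cells of the HF groups had 6 h in medium with 100 nM halofuginone (HF), a compound known to inhibit prolyl-tRNA charging, and control cells had 6 h in the same medium without it. Both had dialyzed serum, in which small molecules such as free amino acids are depleted, so the control is a medium change as well. Each condition was read by total RNA and by ribosome footprints (RPF, the mRNA fragments that a ribosome shields from nuclease), with 3 libraries in each of the 4 groups. The labels do not say whether the MEF were primary or a line, whether replicates were separate cultures, or at what clock time cells were collected. The p-values therefore set the difference between groups against the spread of these libraries, whether technical or biological. That spread was estimated for each gene with weight from other tested genes (median prior degrees of freedom 66.3 in RNA and 27.9 in footprints, against 4 residual). With a single time of 6 h a change of level and a shift of phase cannot be told apart.

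In the mammalian clock, the proteins CLOCK and BMAL1 (the product of Arntl) form a dimer that binds E-boxes and drives transcription of the Per, Cry, Nr1d, Bhlhe40 and Dbp genes. PER and CRY proteins accumulate and inhibit that dimer, which closes the main loop, while REV-ERB alpha and beta (Nr1d1 and Nr1d2) repress Arntl through ROR elements. Fibroblasts carry such a clock in each cell, cells of an unsynchronised dish run out of phase, and serum or hormone pulses are known to induce Per genes and reset the phase.

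Promoter windows are shown for the 3 members in which a searched element was found, since the loops described above act through these elements. RefSeq windows of GRCm38.p6 (250 bases before to 50 after a transcript start, 300 bases) matched 8 of the 10 genes, all but Per2 and Bhlhe40, with 12 windows in all. Both strands were searched for CACGTG (E-box), TTATGTAA or TTACGTAA (D-box), TGACGTCA (cAMP response element), TAGGTCA (core of the ROR and REV-ERB element) and TGATGNAA (core of the C/EBP-ATF element bound by ATF4). Capitals mark the match, and positions count from the transcript start.
Per1, plus strand, chr11:69098699-69098998, E-box at -166: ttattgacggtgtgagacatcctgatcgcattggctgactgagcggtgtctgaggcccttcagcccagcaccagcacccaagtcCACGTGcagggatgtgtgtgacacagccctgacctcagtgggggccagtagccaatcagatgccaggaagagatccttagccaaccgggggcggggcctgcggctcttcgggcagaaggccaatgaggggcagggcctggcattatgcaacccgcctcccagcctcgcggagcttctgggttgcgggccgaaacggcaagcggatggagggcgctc
Cry1, minus strand, chr10:85185005-85185304, E-box at -60: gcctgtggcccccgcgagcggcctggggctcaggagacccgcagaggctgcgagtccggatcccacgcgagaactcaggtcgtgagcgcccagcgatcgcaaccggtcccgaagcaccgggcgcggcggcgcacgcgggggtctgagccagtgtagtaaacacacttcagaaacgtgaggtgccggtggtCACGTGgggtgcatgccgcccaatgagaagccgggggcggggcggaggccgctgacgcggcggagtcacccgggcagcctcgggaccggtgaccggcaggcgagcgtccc
Arntl, plus strand, chr7:113207261-113207560, ROR and REV-ERB core at 31: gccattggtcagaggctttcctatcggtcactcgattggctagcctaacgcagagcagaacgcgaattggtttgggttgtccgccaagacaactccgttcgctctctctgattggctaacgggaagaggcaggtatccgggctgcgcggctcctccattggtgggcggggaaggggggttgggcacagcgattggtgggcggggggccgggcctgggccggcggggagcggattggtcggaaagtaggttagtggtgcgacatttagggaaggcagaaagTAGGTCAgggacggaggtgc
The E-box was found in 2 of the 12 windows and in 7.15% of all 32851 windows. The ROR and REV-ERB core was found in 1 of the 12, and in 2.61% of all. The other Per1 and Arntl windows and those of Nr1d1, Nr1d2, Dbp, Clock and Cry2 held none of the searched letters, and the D-box, cAMP and C/EBP-ATF motifs, found in 1.06%, 1.79% and 3.97% of all windows, were in none of the 12. A match is a description of the letters and not of binding.

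Clock gene counts were low to moderate, which limits precision. Libraries held 1017651 to 1697554 counts in HF RNA and 718096 to 1295434 in control RNA, 562794 to 1958356 in HF footprints and 724609 to 2527791 in control footprints. Values below are CPM, counts scaled to library size with TMM factors, so they are relative levels within an assay. Library size was the count over all gene IDs in RNA and over protein-coding genes in footprints. Fewer expressing cells and less RNA per cell cannot be told apart. Gm42418, a locus that overlaps ribosomal RNA, took 7.35% to 9.48% of HF RNA counts and 11.8% to 13.7% of control RNA counts, and the 7 clock genes called in RNA were also called when protein-coding genes alone were fitted. All 9 fibroblast markers had counts in every group, with a summed RNA level of 9221 to 9536 CPM in HF and 7665 to 8030 CPM in control libraries and a summed footprint level of 12265 to 12598 CPM in HF and 15809 to 16768 CPM in control libraries. Of the 7 tested in RNA, 1 rose, Fn1, at a mean of 4903 CPM in HF and 1516.5 CPM in control libraries. The 5 that fell were Col1a1, Col1a2, Pdgfrb, Vim and S100a4. Col3a1 (2 RNA counts in HF, 15 in control libraries) and Pdgfra (28 and 13) were too low to test in RNA. The part of these markers in the results was not tested. Epithelial, haematopoietic, muscle and pluripotency lists each summed to at most 5.80 CPM in any library, with Myod1, Myog, Des, Pou5f1 and Nanog at 0 counts in RNA. The endothelial list summed to 5.20 to 15.5 CPM in HF RNA and 0.00 to 1.59 CPM in control RNA, with Pecam1 and Tek at 0. Kdr had 36 RNA counts over the HF and 2 over the control libraries, and Cdh5 had 2 and 0. Footprints of this list summed to 3.31 to 12.3 CPM in HF and 0.00 to 4.02 CPM in control libraries. The neural list (Tubb3, Sox2, Gfap) summed to 11.6 to 31.2 CPM in HF RNA and 18.6 to 40.4 CPM in control RNA, and its footprints to 28.2 to 56.3 CPM in HF and 65.4 to 85.0 CPM in control libraries, where Tubb3 fell by 0.74 on the log2 scale (edgeR adjusted p = 0.017). The part of both lists in the results was not tested.

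Transcripts of 7 clock genes rose in HF cells, and none fell. Nr1d1 and Arntl rose most, by 4.64-fold and 4.36-fold, followed by Nr1d2, Clock, Per1, Cry1 and Bhlhe40, while Cry2 did not pass the test and Per2 and Dbp were too low to test. Of the 10 genes, 8 passed the filter on low counts in RNA, each with every library of both groups over its cutoff. Of these 8, 7 were called at an adjusted p under 0.05 (edgeR quasi-likelihood test, Benjamini-Hochberg over 9145 genes), where 43.6% of all tested genes were called, 22.1% higher and 21.5% lower. In the same 7 every HF library lay above every control library, which held for 25.9% of all tested genes. The median log2 fold change of the 8 was 1.10, against -0.02 over all tested genes.

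Footprints rose on 5 of the 8 tested clock genes, Nr1d1, Arntl, Per1, Clock and Bhlhe40, and fell on none. Over all 8375 protein-coding genes tested in footprints, 43.1% were called, 22.3% higher and 20.8% lower. In the same 5 every HF library lay above every control library, as in 25.2% of all tested genes. The median log2 fold change of the 8 was 0.80 against -0.02 over all tested genes. The filter asks for 3 libraries over its cutoff, counted over both groups. Of the 8, 7 had every library over the footprint cutoff of 8.73 CPM. Nr1d2 had all HF libraries and 2 of 3 control libraries over it. For Nr1d2 the HF libraries alone met the filter, and the control libraries alone did not. A median over genes that passed a filter is a description only.

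**Figure D1:**
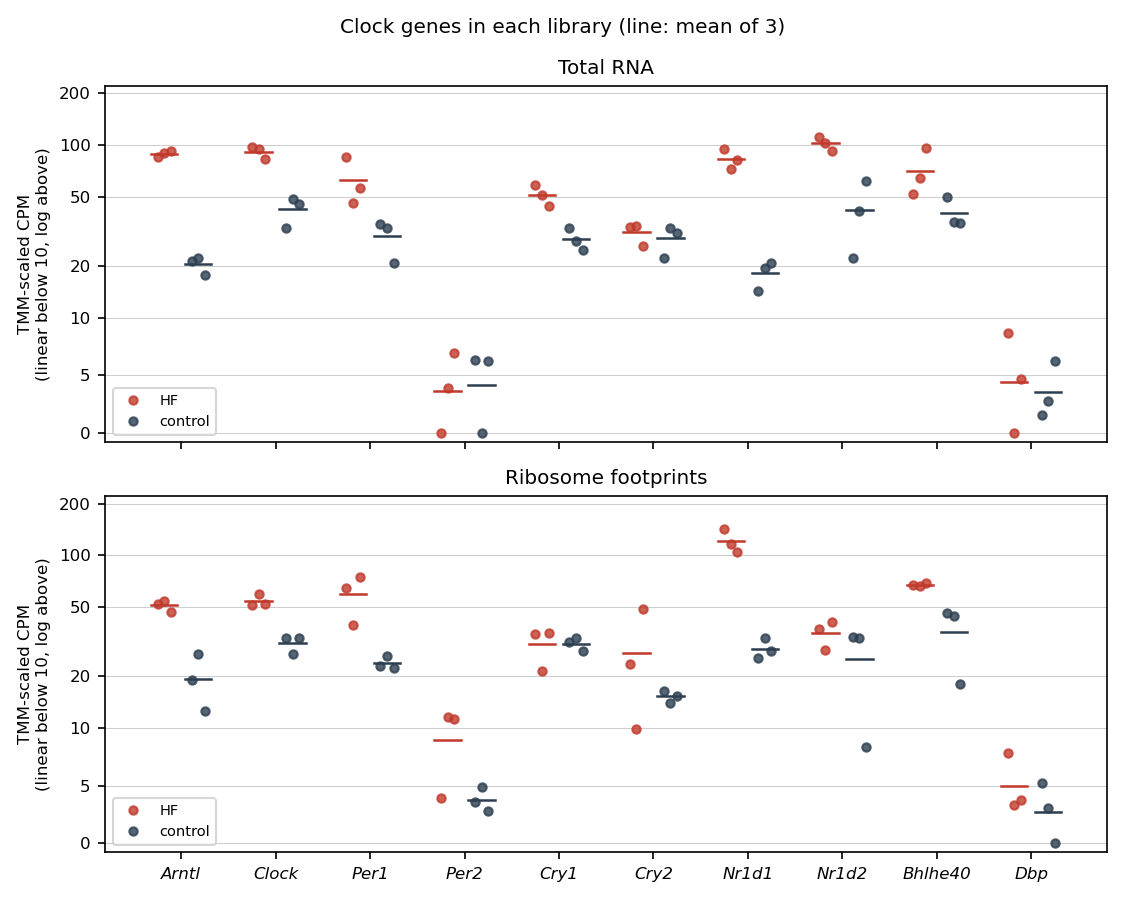
TMM-scaled CPM of the 10 clock genes in each of the 12 libraries, HF left of control, with the line at the mean of 3; the vertical axis is linear below 10 CPM and logarithmic above. In total RNA the HF libraries lie above every control library for Arntl, Clock, Per1, Cry1, Nr1d1, Nr1d2 and Bhlhe40, while Per2 and Dbp stay under 12 CPM in both assays.

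Arntl, whose product BMAL1 is the indispensable partner of the activating dimer, had 84.9, 90.0 and 92.2 CPM in HF RNA, against 21.4, 22.2 and 17.6 CPM in control RNA. The HF libraries lay close together and far above all control libraries. The fitted log2 fold change was 2.12 (ENSMUSG00000055116, chromosome 7 from 113178471 to 113314126 in GRCm38; SE 0.26, edgeR adjusted p = 2.0e-10). Its footprints were at 52.4, 54.7 and 47.0 CPM in HF cells and 18.9, 26.7 and 12.5 CPM in control cells. The groups again did not overlap, at a log2 fold change of 1.35 (SE 0.30, edgeR adjusted p = 0.00048).

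Clock encodes the other partner of the dimer, a bHLH-PAS factor with acetyltransferase activity. Its RNA was at 97.0, 94.8 and 83.5 CPM in HF and 33.3, 48.5 and 45.5 CPM in control libraries (ENSMUSG00000029238, chromosome 5 from 76209868 to 76305603). The log2 fold change of 1.13 (SE 0.23, edgeR adjusted p = 3.0e-05) was smaller than that of Arntl. Clock footprints were at 51.8, 59.7 and 52.6 CPM in HF and 33.3, 26.7 and 33.4 CPM in control libraries. The groups did not overlap, with a log2 fold change of 0.81 (SE 0.26, edgeR adjusted p = 0.013). Leaving out RPF control 2 ended this call (0.69, edgeR adjusted p = 0.073).

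Per1, a repressor of the dimer and an early-response gene of clock resetting, had 84.9, 46.4 and 56.2 CPM in HF RNA and 34.9, 33.3 and 20.7 CPM in control RNA. All HF values exceeded all control values, with RNA HF 1 well above the other HF libraries. The log2 fold change was 1.07 (ENSMUSG00000020893, chromosome 11 from 69095108 to 69109965; SE 0.28, edgeR adjusted p = 0.0010). Per1 footprints were at 65.2, 39.8 and 75.1 CPM in HF and 22.9, 26.1 and 22.3 CPM in control libraries. They rose by 1.34 on the log2 scale (SE 0.28, edgeR adjusted p = 0.00024), again without overlap of the groups.

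Per2, the paralogue of Per1 and a repressor in the same complex, was near the limit of detection. Its RNA counts were 0, 4 and 12 in HF libraries and 8, 0 and 6 in control libraries (ENSMUSG00000055866, chromosome 1 from 91415977 to 91459351). The groups overlapped, and the depth-scaled ratio of HF to control was 0.861 with an exact 95% interval of 0.394 to 1.91. Footprint counts were 7, 7 and 6 in HF and 9, 8 and 2 in control libraries, a depth-scaled ratio of 1.74 (0.884 to 3.45). Both intervals span no change, so a change of Per2 was not detectable at this depth, and they cover counting error only.

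Cry1 and Cry2 encode flavoproteins that repress the dimer directly. Cry1 RNA was at 58.9, 51.3 and 44.6 CPM in HF and 33.3, 27.7 and 24.8 CPM in control libraries, a rise of 0.83 on the log2 scale (ENSMUSG00000020038, chromosome 10 from 85131700 to 85185054; SE 0.28, edgeR adjusted p = 0.013). The groups did not overlap, yet leaving out RNA control 3 (0.72, edgeR adjusted p = 0.056) or RNA HF 1 (0.76, edgeR adjusted p = 0.052) ended the call. Cry1 footprints were at 35.1, 21.5 and 35.7 CPM in HF and 31.3, 33.4 and 27.8 CPM in control libraries, with the groups interleaved and a log2 fold change of 0.01 (SE 0.30, edgeR adjusted p = 0.98) whose sign turned under some settings.

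Cry2 RNA was at 33.8, 33.9 and 26.1 CPM in HF and 22.2, 33.3 and 31.0 CPM in control libraries, which overlap (ENSMUSG00000068742, chromosome 2 from 92403646 to 92434085; log2 fold change 0.13, SE 0.33, edgeR adjusted p = 0.78). Cry2 footprints were uneven in HF cells, at 23.4, 9.94 and 48.8 CPM, against 16.5, 14.0 and 15.3 CPM in control cells. RPF HF 2 lay below the control range and the other two above it. The log2 fold change of 0.78 (SE 0.43, edgeR adjusted p = 0.15) did not pass, but passed without RPF HF 2 (1.11, edgeR adjusted p = 0.033) and was 0.26 (edgeR adjusted p = 0.67) without RPF HF 3.

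Nr1d1, which encodes the haem-binding nuclear receptor REV-ERB alpha, had the largest fitted fold change of the tested clock genes in footprints, and in RNA stood beside Arntl, with an order that turned without RNA control 1 or RNA HF 1. Its RNA was at 94.4, 72.5 and 81.7 CPM in HF and 14.3, 19.4 and 20.7 CPM in control libraries (ENSMUSG00000020889, chromosome 11 from 98767932 to 98775377). The HF libraries lay far above all control libraries. The log2 fold change was 2.21 (SE 0.28, edgeR adjusted p = 3.1e-10), at percentile 98.3 of all tested genes. Nr1d1 footprints were at 142, 116 and 105 CPM in HF and 25.3, 33.4 and 27.8 CPM in control libraries, a rise of 2.10 on the log2 scale (SE 0.22, edgeR adjusted p = 1.6e-09).

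The Nr1d1 span shares 1075 bases with that of Thra, the thyroid hormone receptor alpha gene, which is known to be transcribed from the opposite strand. The use of strand in counting is not given in the sources used here, so reads of the shared stretch cannot be told apart. Thra had 41 RNA counts over the HF libraries and 84 over the control libraries, with a log2 fold change of -1.47 (SE 0.47, edgeR adjusted p = 0.0076), the opposite direction to Nr1d1.

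Nr1d2, which encodes REV-ERB beta, rose in RNA and did not pass in footprints. Its RNA was at 112, 104 and 92.2 CPM in HF and 22.2, 41.6 and 62.0 CPM in control libraries (ENSMUSG00000021775, chromosome 14 from 18204056 to 18239106). The control libraries were widely spread, and all lay below the HF libraries. The log2 fold change was 1.31 (SE 0.24, edgeR adjusted p = 4.7e-06), with values from 0.95 to 1.75 as single libraries were left out (0.95 without RNA control 1, 1.75 without RNA control 3). Its footprints were at 37.4, 28.2 and 41.3 CPM in HF and 33.7, 33.4 and 8.35 CPM in control libraries, where RPF control 3 rests on 6 counts. These groups overlapped, and the log2 fold change was 0.38 (SE 0.34, edgeR adjusted p = 0.39).

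Bhlhe40 encodes DEC1, a bHLH repressor that competes for E-boxes and is also induced by many other stimuli. Its RNA was at 51.96, 64.8 and 95.6 CPM in HF and 49.9, 36.1 and 35.2 CPM in control libraries (ENSMUSG00000030103, chromosome 6 from 108660629 to 108666925). RNA HF 1 and RNA control 1 almost touched. The log2 fold change of 0.81 (SE 0.25, edgeR adjusted p = 0.0060) lost its call without RNA HF 3 (0.53, edgeR adjusted p = 0.16). Footprints were at 67.5, 66.3 and 69.5 CPM in HF and 46.2, 44.3 and 18.1 CPM in control libraries, a log2 fold change of 0.80 (SE 0.26, edgeR adjusted p = 0.013) that lost its call without RPF control 3 (0.58, edgeR adjusted p = 0.064).

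Dbp, the PAR bZIP factor that activates D-box genes downstream of the clock, was as rare as Per2. RNA counts were 10, 0 and 8 in HF and 2, 2 and 6 in control libraries, and footprint counts were 14, 2 and 2 in HF and 13, 5 and 0 in control libraries (ENSMUSG00000059824, chromosome 7 from 45705100 to 45710203). The groups overlapped in both assays. The depth-scaled ratio of HF to control was 1.36 (exact 95% interval 0.594 to 3.29) in RNA and 1.66 (0.813 to 3.38) in footprints, so a change was not detectable. Its span shares 741 bases with Sphk2, a sphingosine kinase gene.

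**Figure D2:**
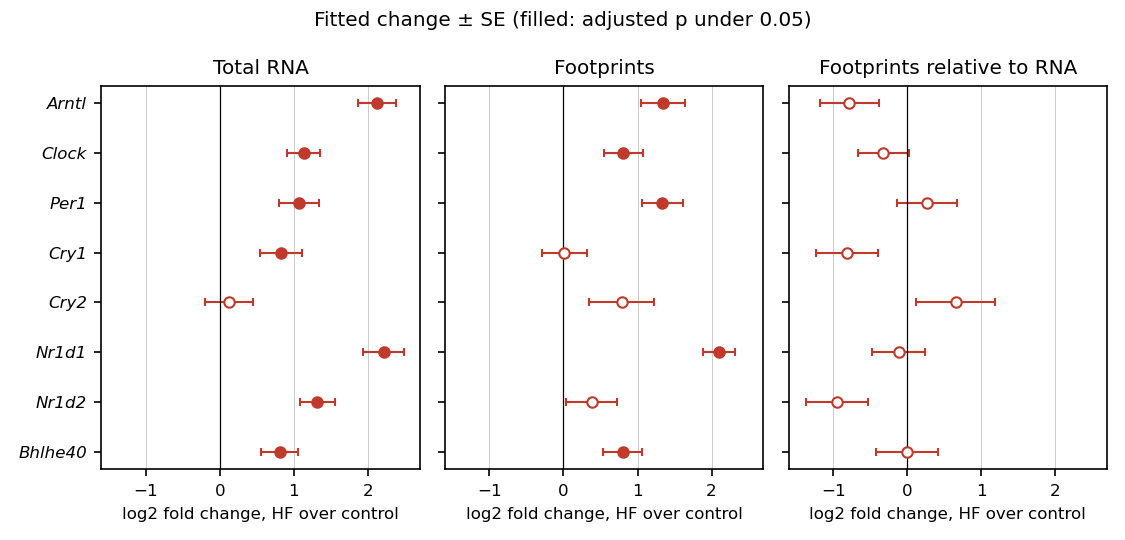
Fitted log2 fold changes, HF over control, with SE bars, for the 8 tested clock genes in total RNA, in footprints and in footprints relative to RNA; filled points passed the adjusted p threshold of 0.05. For RNA 7 points are filled, for footprints 5 and for footprints relative to RNA 0.

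Whether ribosome occupancy followed the transcripts was tested with an interaction term between assay and treatment, fitted over the 12 libraries (translational efficiency, TE). None of the 8 tested clock genes passed in edgeR, where 14.6% of 7927 genes did (6.19% higher, 8.41% lower), and none passed in DESeq2. Of the 8, 1 had an unadjusted p under 0.05 (26.1% of all tested genes), and this was Nr1d2. Its log2 TE change was -0.95 (SE 0.42, unadjusted p = 0.026, edgeR adjusted p = 0.12), and it was called without RNA control 3 (-1.39, edgeR adjusted p = 0.030) or RPF control 3 (-1.22, edgeR adjusted p = 0.032).

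The lowest TE changes after Nr1d2 belonged to Cry1 at -0.81 (SE 0.41, edgeR adjusted p = 0.20) and Arntl at -0.78 (SE 0.40, edgeR adjusted p = 0.20). The values were -0.32 for Clock, -0.12 for Nr1d1, -0.00 for Bhlhe40, 0.27 for Per1 and 0.66 for Cry2 (SE 0.53), and these 5 had edgeR adjusted p-values of 0.47 or more. Of the 8 values, 6 were below 0, with a median of -0.22, against 0.00 over all tested genes. The SE of 0.34 to 0.53 leaves room for changes of TE that these counts could not show.

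Footprints per RNA were also compared between the clock genes, with the caveat that the share of untranslated sequence counted in RNA is not known. Library size covered all gene IDs in RNA and protein-coding genes in footprints, so the ratios have no absolute scale. The log2 ratio of mean footprint to mean RNA CPM was highest for Nr1d1, at 0.55 in HF and 0.67 in control cells (percentiles 66.2 and 71.2 among 7927 genes). It was lowest for Nr1d2 in HF cells, at -1.52 (percentile 9.06), against -0.74 in control cells (percentile 22.3). Cry2 was lowest in control cells, at -0.92 (percentile 18.1), with -0.19 in HF cells (percentile 38.8). The HF value of Cry2 rests on footprints that ran from 9.94 to 48.8 CPM. None of these differences between HF and control passed the TE test.

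Ratios between paired clock genes within a library need no scaling, and 3 pairs were compared after their values had been seen. The ratio of Nr1d1 to Nr1d2 RNA counts was 0.845, 0.701 and 0.887 in HF and 0.643, 0.467 and 0.333 in control libraries, so the HF libraries all lay higher. For footprints it was 3.79, 4.12 and 2.55 in HF and 0.750, 1.00 and 3.33 in control libraries, with overlap through RPF control 3. From summed counts, HF cells had 3.58 Nr1d1 footprints per Nr1d2 footprint and control cells 0.952.

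The ratio of Arntl to Clock RNA was 0.875, 0.949 and 1.10 in HF and 0.643, 0.457 and 0.386 in control libraries, again with every HF library higher. In footprints it was 1.01, 0.917 and 0.893 in HF and 0.566, 1.00 and 0.375 in control libraries, which overlap. The ratio of Cry1 to Cry2 was 1.74, 1.51 and 1.71 in HF RNA and 1.5, 0.833 and 0.800 in control RNA, while in footprints it was 1.5, 2.17 and 0.731 in HF and 1.90, 2.39 and 1.82 in control cells, with overlap. An exact permutation test of 3 libraries against 3 cannot give a two-sided p below 0.10, so no p is given.

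**Figure D3:**
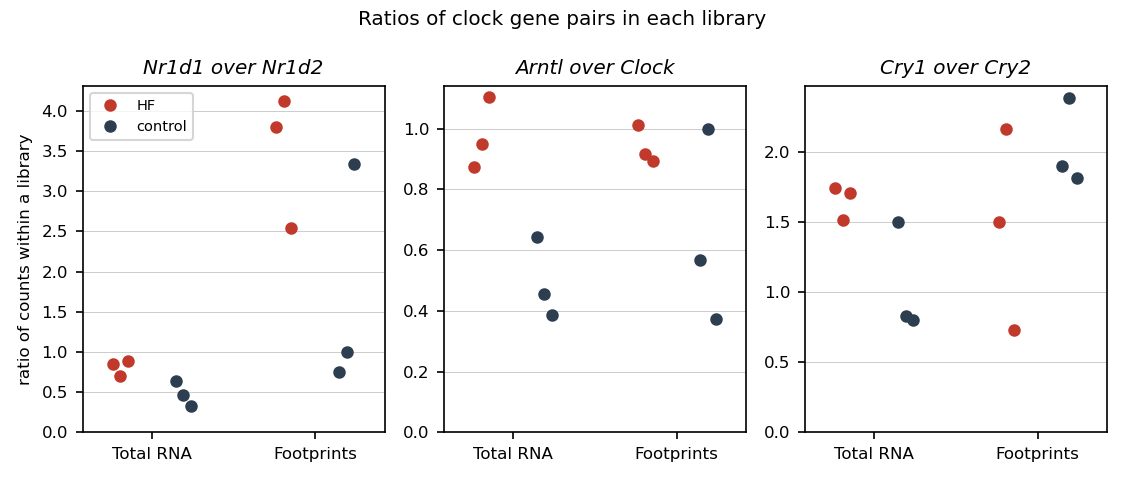
Ratio of raw counts within each library for 3 pairs of clock genes, HF left of control, in total RNA and in footprints; each point is 1 library and the axes start at 0. In RNA every HF point lies above every control point in all 3 pairs, and in footprints the groups overlap in all 3. For Cry1 over Cry2 the RNA groups almost touch, at 1.51 in HF 2 and 1.5 in control 1. The pairs were picked after their values had been seen, and the share of other gene pairs without overlap was not computed.

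Other genes of the clock pathway were described from 7 lists with 54 genes, of which 44 were tested in each assay. In RNA 23 rose and 5 fell, with a median log2 fold change of 0.42 against -0.02 over all tested genes. The number that fell was 2 without RNA HF 1 and 8 with upper-quartile factors. In footprints 18 rose and 5 fell, with a median of 0.29 against -0.02. The 28 and 23 genes called stand beside the 43.6% and 43.1% called among all tested genes, and these shares apply to the counts of each list below as well. In TE 9 of 43 tested pathway genes were called, 3 higher and 6 lower, where 14.6% of all tested genes were called. Values below are log2 fold changes of genes with an edgeR adjusted p under 0.05, unless said otherwise.

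Among other loop factors, Bhlhe41, which encodes DEC2, the paralogue of DEC1, rose in RNA by 1.94 (edgeR adjusted p = 5.4e-08) and in footprints by 1.87 (edgeR adjusted p = 0.00014). Per3, the third Period gene, fell in RNA at a log2 fold change of -1.45 (edgeR adjusted p = 0.018), though not once RNA control 3, RNA HF 2 or RNA HF 3 was left out (edgeR adjusted p up to 0.090). Per3 had all control libraries and 1 of 3 HF libraries over the count filter cutoff of 9.15 CPM. Its control libraries alone met the filter, and its HF libraries alone did not. With halved counts Per3 did not pass the filter. Ciart, which encodes the repressor CHRONO, had 38 RNA counts over the HF libraries and 4 over the control libraries and was too low to test in RNA (depth-scaled ratio 7.16, exact 95% interval 2.58 to 27.6). Its footprints did not pass. Rorb had 44 and 10 RNA counts in HF and control libraries, also untested (ratio 3.32, 1.64 to 7.39). Its footprint counts were 19 in HF and 30 in control libraries (ratio 1.05, 0.558 to 1.93), with all 19 in RPF HF 1. The intervals of Ciart and Rorb cover counting error only. Rora, which encodes an activator of ROR elements, was at 0 in all libraries, and Npas2, which can stand in for Clock, had 2 counts in HF RNA and 0 in the other groups.

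Nfil3, a bZIP repressor of D-boxes, averaged 144 ± 10.6 CPM in HF RNA and 29.7 ± 8.06 CPM in control RNA (SD, n = 3 each; log2 fold change 2.24, SE 0.22, edgeR adjusted p = 3.3e-14), and its footprints rose by 2.16 (edgeR adjusted p = 1.3e-07). Tef, a D-box activator like Dbp, averaged 55.2 ± 16.6 CPM in HF RNA and 91.2 ± 12.8 CPM in control RNA, with a log2 fold change of -0.73 (edgeR adjusted p = 0.0045) whose call ended without RNA control 1 or RNA HF 1 (edgeR adjusted p up to 0.088). The TE of Tef rose by 1.42 (SE 0.43, edgeR adjusted p = 0.019), and this did not pass without RNA control 1, RNA HF 1 or RPF HF 1 (edgeR adjusted p up to 0.12). In footprints all HF libraries and 2 of 3 control libraries of Tef were over the filter cutoff. Its HF libraries alone met the filter, and its control libraries alone did not. Hlf, the third PAR bZIP gene, had 4 counts in HF RNA and 0 in every other group.

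Of 11 tested genes for turnover of PER and CRY, 4 rose and 1 fell in RNA, and 2 rose and 2 fell in footprints. These counts are close to the shares called among all tested genes, 43.6% in RNA and 43.1% in footprints. Csnk1e, a casein kinase that phosphorylates PER, rose by 0.63 in RNA and by 1.71 in footprints, with a TE change of 1.08 (SE 0.24, edgeR adjusted p = 8.0e-04). Csnk1a1, another casein kinase 1, rose by 0.79 in RNA and fell by 0.37 in footprints, where the footprint call was lost without RPF control 2 or RPF HF 1 (edgeR adjusted p up to 0.081). The TE change of Csnk1a1 was -1.15 (SE 0.16, edgeR adjusted p = 1.9e-07). Fbxw11, a ubiquitin ligase subunit that binds phosphorylated PER, rose by 0.44 in RNA. Csnk2b, the regulatory subunit of casein kinase 2, fell in both assays, at -2.28 in RNA and -1.67 in footprints. Its TE change of 0.62 (edgeR adjusted p = 0.035) was lost in 8 of the 12 fits that left out 1 library, those without RNA control 1, RNA HF 1 or 2, RPF control 1, 2 or 3, and RPF HF 1 or 2 (edgeR adjusted p up to 0.098). It was also lost with the replicate block, with no filter and with TMM factors over all 12 libraries (edgeR adjusted p up to 0.077).

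Cofactors of the loops had 7 of 10 higher and 0 lower in RNA, but 4 higher and 3 lower in footprints. Sirt1, a deacetylase that binds the CLOCK dimer, rose by 1.96 in RNA and 0.98 in footprints, with a TE change of -0.95 (edgeR adjusted p = 0.015) that was lost without RNA control 2, RNA control 3 or RNA HF 2 (up to 0.080), and the methyltransferase gene Kmt2a by 1.33 and 1.57. Timeless, also known from DNA replication, rose by 0.83 and 1.29. Crebbp, an acetyltransferase coactivator, rose by 0.41 in RNA while its footprints fell by 1.64, with a TE change of -2.05 (SE 0.24, edgeR adjusted p = 1.8e-09). Ncor1, the corepressor that REV-ERB proteins recruit, rose by 0.58 in RNA and fell by 1.03 in footprints, with a TE change of -1.61 (SE 0.32, edgeR adjusted p = 1.9e-04). Its RNA call was lost without RNA control 2, RNA control 3 or RNA HF 3 (0.35 to 1.02 over the libraries left out, edgeR adjusted p up to 0.16). Sfpq, which encodes an RNA-binding partner of PER complexes like its relative NONO, rose by 0.67 in RNA, with a TE change of -0.90, Nono fell by 0.54 in footprints, and Ep300 was called in both assays, at 0.44 and 0.43, but not in RNA without RNA control 1 or 3 (edgeR adjusted p up to 0.11) nor in footprints without any one library other than RPF HF 3 (up to 0.40). The footprint call of Ep300 was also lost with upper-quartile factors, with DESeq2 and with all gene IDs (adjusted p up to 0.12).

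Of 6 genes known as clock outputs, 4 rose in RNA and 2 in footprints, and none fell. Noct, a rhythmic phosphatase gene, rose by 1.87 in RNA and 2.26 in footprints, and Klf10, a Krüppel-like factor gene, by 2.47 and 2.94. Klf9, another Krüppel-like factor gene, rose by 1.199 in RNA (0.93 to 1.83 with 1 library left out, and not called without RNA control 1 or RNA HF 3, edgeR adjusted p up to 0.077) and Nampt, the NAD salvage enzyme gene, by 0.60 (without any of RNA control 1, RNA control 3, RNA HF 2 or RNA HF 3, up to 0.22, and not called with upper-quartile factors or DESeq2, up to 0.084). Wee1, a cell cycle kinase gene with E-boxes, and Tspan4 passed in neither assay.

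The CREB arm, through which many signals induce Per genes, had 2 higher and 2 lower of 8 tested in RNA and 4 higher in footprints. Sik2, a kinase that restrains CREB coactivators, rose by 1.16 in RNA and 1.22 in footprints, and Sik3 by 0.42 in RNA. The coactivator genes Crtc1 and Crtc3 fell by 0.96 each in RNA, while Crtc2, Creb1 and Atf1 rose in footprints by 0.99, 0.78 and 0.77. Apart from Sik2, each of these calls was lost when certain single libraries were left out. For RNA these were RNA HF 1 for Crtc1, RNA control 2 or 3 and RNA HF 1 or 2 for Crtc3, and RNA control 1 or 3 and RNA HF 1 for Sik3 (edgeR adjusted p up to 0.19). For footprints they were RPF control 1 or 3 and RPF HF 1 or 3 for Crtc2, RPF control 1 or 2 and RPF HF 1 or 3 for Creb1, and RPF control 1 or 3 and RPF HF 3 for Atf1 (up to 0.26). The Crtc2 call was also lost with the replicate block, upper-quartile factors, DESeq2 and no filter (adjusted p up to 0.086), those of Creb1 footprints and Sik3 RNA with DESeq2, and that of Crtc3 RNA with no filter.

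Genes of the glucocorticoid response, another route to Per induction, had 4 of 5 higher in both assays. Tsc22d3, which encodes GILZ, rose by 2.83 in RNA and 2.37 in footprints. In footprints all its HF libraries and 2 of 3 control libraries were over the filter cutoff. Its HF libraries alone met the filter, and its control libraries alone did not. Nr3c1, the receptor gene, rose by 1.51 and 0.83, the kinase gene Sgk1 by 1.37 and 0.70 and the phosphatase gene Dusp1 by 1.09 and 1.52. The TE change of Sgk1 was -0.66 (edgeR adjusted p = 0.016), lost without RNA HF 1, RNA HF 2 or RPF HF 2 (up to 0.059). Fkbp5, a further receptor target, passed in neither assay.

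**Figure D4:**
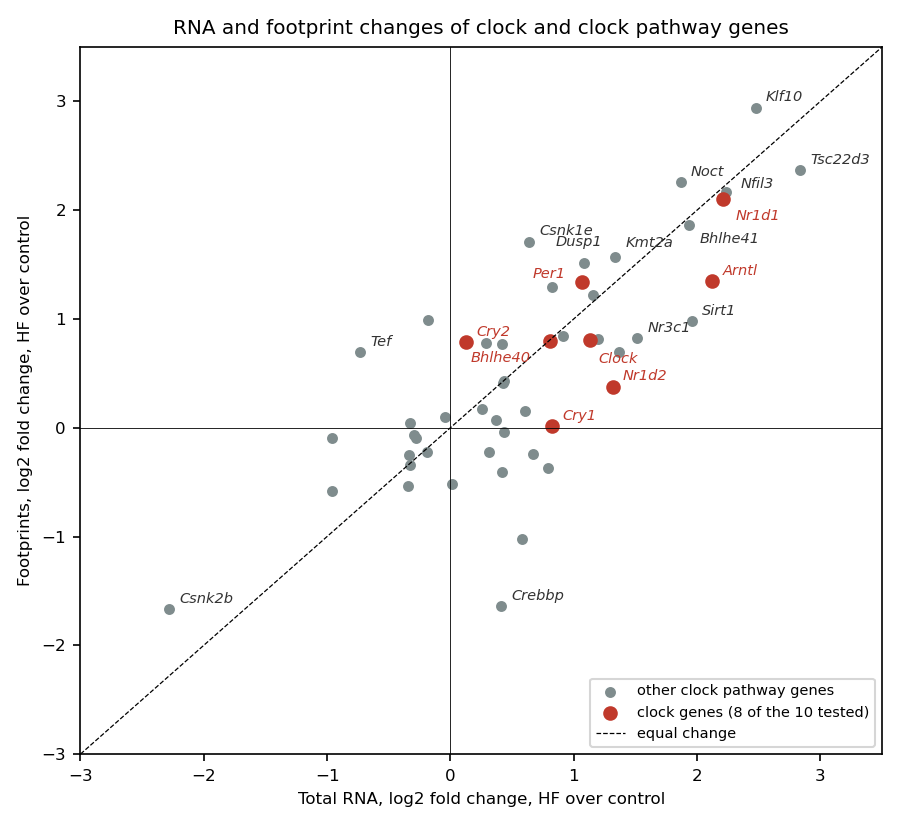
Log2 fold change in total RNA (horizontal) and in footprints (vertical), HF over control, for the 8 tested clock genes and the other clock pathway genes tested in both assays; the dashed line marks equal change. Arntl, Nr1d2 and Cry1 lie below the line, Nr1d1 and Bhlhe40 lie close to it, and Crebbp lies farthest below it.

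For Clock, Bhlhe40 and Nr1d1, the 3 members with the highest mean log2 CPM, the genes with the most similar pattern were sought, as Pearson's r over the 12 libraries of log2 CPM centred within assay, among 7927 genes. Nr1d1 was most like Il1rl1 (r = 0.996), Thbs1 (0.994) and Rars (0.991). Clock was most like Zfp367 (0.979), Ubr2 (0.975) and Hspa9 (0.975), and Bhlhe40 most like Stk40 (0.928), Itsn1 (0.928) and Gtf2a1 (0.919). The libraries share a treatment contrast, and 93 genes came to within 0.02 of the third gene for Nr1d1 or above it, so the order among them is a description only.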

How the data were processed

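The data are 12 libraries, 6 of total RNA and 6 of ribosome footprints. The authors deposited whole-number counts of reads per Ensembl gene ID, with no normalization. Per the submitters' processing notes, Bowtie, HISAT2 and HTSeq were used with GRCm38. The sources used here give no version, counted feature, strand setting or handling of multi-mapped reads. Most low counts were even (64.6% to 80.3% of counts from 1 to 20), so a fit with halved counts was run and counting intervals may be too narrow.

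Symbols came from the ID table (55450 IDs) and gene type and coordinates from RefSeq GRCm38.p6. The edgeR package (4.0.16, in R 4.3.3) gave quasi-likelihood tests with TMM scaling, after filterByExpr at a minimum count of 10 and with Benjamini-Hochberg adjustment at 0.05. It was run on all genes for RNA, on protein-coding genes for footprints, and as an interaction over 12 libraries for TE. An SE is the size of the log2 fold change over the root of its F statistic. DESeq2 1.42.0, other scalings, filters, a replicate block and left-out libraries were alternatives. The tests were also run on simulated counts. Those lacked the excess of even values, so that run cannot vouch for the p-values here. Members and lists were chosen with earlier results of these data known. Named genes are the 10 members and every called gene of the pathway lists, with up to 4 others, apart from some list genes that are counted but not reported here by name; Thra, Sphk2, the gene pairs of the ratios and the uncalled pathway genes named were picked after their values were seen. Footprint density per coding length and proline content were planned and not run, since no protein sequences were used here.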

Additional observations from a re-analysis of the deposited data

How the results depend on the processing

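All counts below rest on few reads per clock gene, which limits what could be detected. Under other scalings, DESeq2, no filter, the replicate block, halved counts and the change of gene set, the clock genes called stayed at 7 in RNA, 5 in footprints and 0 in TE, and no total of genes, clock genes or pathway genes called moved by over 1.5 times. Within the RNA pathway total, the genes that fell numbered 8 with upper-quartile factors, against 5. Leaving out 1 library at a time gave 6 to 7 clock genes called in RNA, 4 to 6 in footprints and 0 to 1 in TE, the 1 being Nr1d2 without RNA control 3 or RPF control 3. Among called pathway genes, 15 fits under other settings and 59 with 1 library left out lost a call, and none changed sign. Deviations of same-numbered HF and control libraries correlated at 0.0034 to 0.039 in RNA and 0.0020 to 0.068 in footprints. Differently numbered libraries gave -0.028 to 0.022 in RNA and -0.078 to 0.045 in footprints. With 3 libraries in each group these values cannot settle whether the replicate numbers pair the libraries. RNA and footprint libraries of the same number were not compared. With the replicate block 3957 genes were called in RNA, 3556 in footprints and 1033 in TE, against 3989, 3606 and 1158 without it.

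Signs turned only for values near 0 that were not called. Cry1 footprints were at -0.0735 with upper-quartile factors, -0.0071 with no filter and -0.0136 with the replicate block, and at -0.14 to 0.18 with 1 library left out. Cry2 RNA was at -0.0545 to 0.27 with 1 library left out. The TE change of Bhlhe40 was 0.0287 with DESeq2, 0.0819 with the replicate block and -0.23 to 0.30 with 1 library left out, and that of Nr1d1 was -0.25 to 0.0600 with 1 library left out. The cause was not tested.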
